A study of Mus musculus with 9 samples.

Results

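The 35 genes described here encode autophagy and lysosome proteins, from the receptors that select cargo to the hydrolases that digest it. They were chosen by gene symbol, with earlier results of these data known. All 35 were found among the 16876 genes of the count table, and all 35 were among the 12212 genes with enough counts to be tested. They were measured in natural killer (NK) cells grown from femur marrow of C57BL/6 mice, first for 4 days in 30 ng/mL of SCF, 10 ng/mL of Flt3L, 50 ng/mL of IL-15 and 1 ng/mL of IL-7. A medium holding 20 ng/mL of IL-2 beside the IL-15 then carried the culture for about another week. The 9 libraries of poly-A RNA form 3 groups of 3: Ctrl cells were left untreated, TGFb cells had 3 h of TGF-β1 (5 ng/mL), and SIS3_TGFb cells had 3 h of SIS3 (10 µM) ahead of the same TGF-β1 treatment. TGF-β1 is a cytokine that signals through SMAD2 and SMAD3 and restrains NK cells, and SIS3 is a small molecule used to block SMAD3. Sample titles of the third group name SIS3 alone, whereas its treatment text and the series design also give TGF-β1. No group had SIS3 without TGF-β1, so SIS3_TGFb against TGFb compares SIS3 and no SIS3 in the presence of TGF-β1 only. The labels name no solvent control. Nothing in the labels ties a replicate to its own mouse or culture, so p-values rest on the spread between libraries alone, which may be technical.

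Autophagy encloses cytoplasm, damaged organelles and protein aggregates in a membrane that closes and fuses with the lysosome. ULK kinases start the process, a lipid kinase complex marks the growing membrane, WIPI proteins read that mark, and a ubiquitin-like conjugation system attaches ATG8 proteins (the LC3 and GABARAP families) to the membrane, where receptors such as p62 dock with their cargo. The transcription factors TFEB and TFE3 switch on many genes of the pathway. Their entry into the nucleus is held back when Rag GTPases, guided by folliculin and its partners, bring them to the kinase mTORC1 on the lysosome. Autophagy is known to be needed for the survival and development of NK cells. The values below are RNA levels and do not measure autophagic flux, the nuclear entry of TFE factors or the activity of an enzyme.

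Library totals ran from 15714973 to 16718673 expected counts (estimated reads per gene), and the common biological coefficient of variation between libraries of a group was 4.53%. Values are CPM (counts scaled to a common library size) with TMM scaling, given per library in the order of replicates 1, 2 and 3 or as mean ± SD over 3 libraries, and changes are log2 differences ± SE. A gene rose or fell when its adjusted p in edgeR's quasi-likelihood test was under 0.05, with no minimum size of change. All 10 NK cell markers looked at were expressed, with summed CPM of 15959 to 16939 in Ctrl, 11661.5 to 12869.9 in TGFb and 13254 to 13509.7 in SIS3_TGFb, of which Gzmb, the granzyme B gene, made up 50.8%. From Ctrl to TGFb 7 of these 10 fell (70%, beside 16.4% of all genes tested), 0 rose and 3 did not pass. All 13 macrophage and monocyte markers were detected as well, with sums of 1697 to 2021 CPM in Ctrl, 1078 to 1410.2 CPM in TGFb and 1092 to 1584 CPM in SIS3_TGFb. Ccr2, 1 of the 13, measured 522, 544 and 534 CPM in Ctrl and 203, 170 and 185 CPM in TGFb (edgeR, adjusted p = 9e-12). In TGFb against Ctrl 10 of the 13 did not pass, 3 fell (23.1%, beside 16.4% of all genes tested) and 0 rose. None of the 5 B cell markers passed the filter on low counts, and the 6 T cell markers were led by Thy1, which NK cells also express and which made up 99.1% of their sum. The other T cell markers lay between 0.2 and 7.7 CPM, and Cd4 among them rose with TGF-β1 from 0.505, 0.739 and 0.852 to 3.02, 2.87 and 1.33 CPM (edgeR, adjusted p = 0.00095). TGFb replicate 3 stood apart from its group on the second principal component, at -30.4 against -15.2 and -17.7 for replicates 1 and 2. In such bulk samples fewer cells of a type and less RNA per cell cannot be told apart.

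Because TFEB and TFE3 are among these genes, the promoters of the genes were searched for the CLEAR core, the palindrome TCACGTGA that these factors bind. Promoters of 250 bases before to 50 bases after the transcription start came from RefSeq (GRCm38.p6) and were given for 29 of the 35 genes, in 33 windows. The other genes were Map1lc3a, Becn1, Atg12, Atg16l1, Ctsb and Atp6v1h. The CLEAR core was found in 4 genes, and in 0.974% of all 32851 promoters of the same length. Those 4 stretches are shown 5′ to 3′ on the strand of the gene, with up to 60 bases before the motif and with the motif in capitals. When SIS3 preceded TGF-β1, Atg3 rose, Ctsd fell, and Mcoln1 and Atp6v0d1 did not pass the test. Whether TFEB or TFE3 acted on these genes was not tested.
Atg3 (chr16:45158697-45158784, plus strand, motif beginning 72 bases before the start): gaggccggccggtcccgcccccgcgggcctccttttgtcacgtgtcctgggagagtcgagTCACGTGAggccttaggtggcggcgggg
Ctsd (chr7:142387899-142387986, minus strand, motif beginning 99 bases before the start): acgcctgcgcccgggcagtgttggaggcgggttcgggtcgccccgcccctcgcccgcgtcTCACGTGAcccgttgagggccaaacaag
Mcoln1 (chr8:3500413-3500500, plus strand, motif beginning 46 bases before the start): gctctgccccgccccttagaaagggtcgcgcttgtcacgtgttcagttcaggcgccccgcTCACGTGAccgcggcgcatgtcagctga
Atp6v0d1 (chr8:105566061-105566128, minus strand, motif beginning 4 bases before the start): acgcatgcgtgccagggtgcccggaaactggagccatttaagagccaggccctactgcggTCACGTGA

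The E-box CACGTG, which lies inside the CLEAR core and so is counted with it, was found in 10 of the 29 genes and in 7.15% of all promoters. It was in Atg3, Atg5, Atg7, Atg14, Atp6v0d1, Ctsd, Ctsl, Fnip1, Mcoln1 and Rragc. The C/EBP-ATF element TTNCATCA was in Atp6v0d1 and Ctsl and in 3.97% of all promoters. The antioxidant element TGACNNNGC was in Atg13, Ctsd, Fnip2, Hexa, Map1lc3b and Ulk2 and in 12.4% of all promoters. The SMAD palindrome GTCTAGAC was in 0 of the 29 genes and in 0.213% of all promoters. Both strands were searched for each motif. For all 5 motifs a gene was counted when any of its windows matched, whereas the percentages are of single promoters, so the units differ. No motif of the 5 was in the Sqstm1 window, and a missing match says only that these letters are not in that window.

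With TGF-β1 the rises lay mostly among receptor, ATG8 and initiation genes. With SIS3 ahead of TGF-β1, 3 of 5 conjugation genes rose, 2 of 5 ATG8 genes fell, and the share of the 35 genes that fell was near that of all genes. In TGFb against Ctrl, 9 of the 35 genes rose (25.7%, beside 17.9% of all genes tested), and 2 fell (5.71%, beside 16.4%). The 9 were both receptors, 3 of 5 ATG8 genes, 2 of 3 initiation genes, the lipid kinase subunit gene Atg14 and Wipi1. Among them the receptor gene Nbr1 lost its call in 9 of 18 alternative ways of processing, and the ATG8 gene Gabarap in 3. The 2 that fell were Fnip2 and Neu1. In SIS3_TGFb against TGFb, 9 genes rose (25.7%, beside 21.2%) and 7 fell (20%, beside 20.6%). The rises included Atg3, Atg5, Atg12, Sqstm1, Wipi2 and Rragd, and the falls included Gabarap, Gabarapl2, Ctsd, Neu1 and Lamp2. In SIS3_TGFb against Ctrl, 15 rose (42.9%, beside 29%) and 8 fell (22.9%, beside 24.9%). The shares that fell in both comparisons of SIS3_TGFb were near those of all genes. Median log2 changes of the 35 genes were 0.022, 0.078 and 0.074 in the same order, beside -0.0036, 0.012 and 0.020 over all genes tested.

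The split into rises and falls depended on the scaling of libraries. With upper-quartile factors TGFb against Ctrl gave 7 rises and 5 falls (20% and 14.3%), beside 14.8% and 21% of all genes under those factors. Without any scaling factor SIS3_TGFb against TGFb gave 16 rises and 2 falls (45.7% and 5.71%), beside 30.2% and 12.3% of all genes. The latter setting moved the median of all genes to 0.0955, so the split of all genes moved the same way as that of the 35. The 3 comparisons share libraries: TGFb enters the first and the second, and the third reuses the Ctrl and SIS3_TGFb libraries, so their values are given side by side and are not independent of each other.

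**Figure D1:**
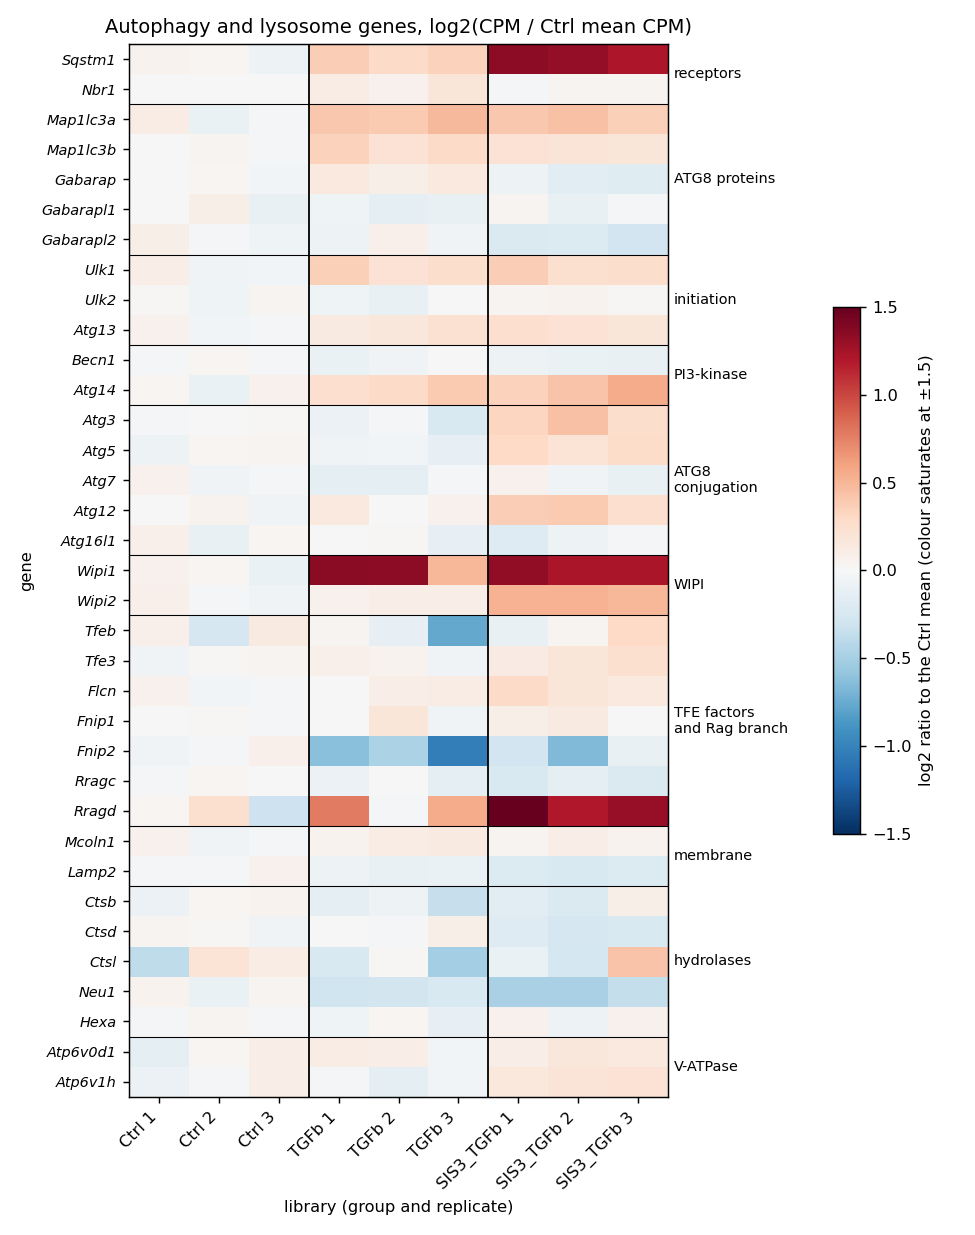
Colour gives the log2 ratio of each gene's CPM in each of the 9 libraries (columns) to the mean of the 3 Ctrl libraries, with genes in rows grouped by role and colours saturating at ±1.5. Sqstm1, Rragd and Wipi1 are the reddest genes in the SIS3_TGFb libraries, Wipi1 is red in TGFb as well, and Fnip2 is bluest in TGFb replicate 3.

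**Figure D2:**
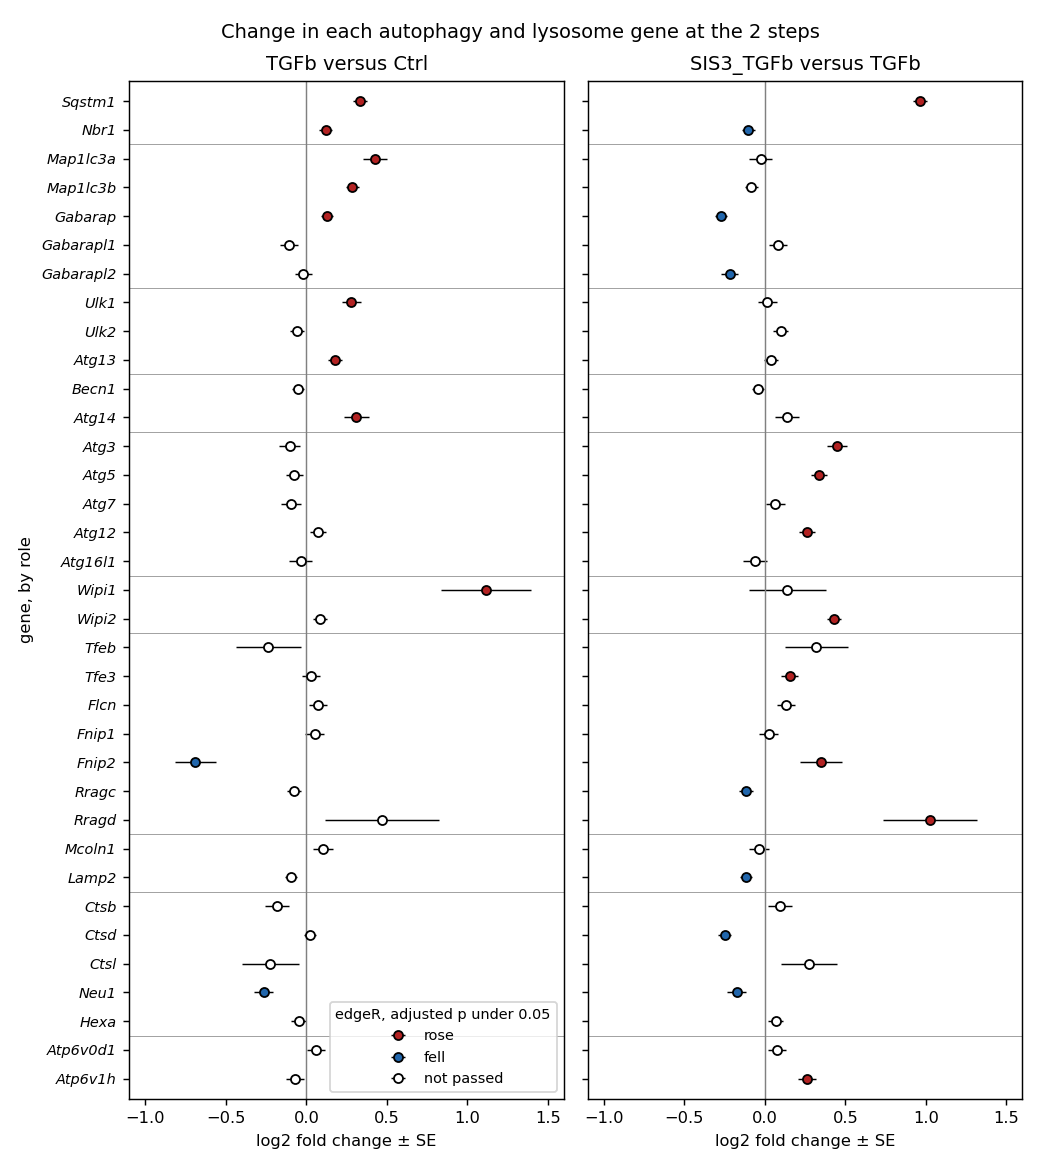
Points give the log2 change and bars its SE for each of the 35 genes in TGFb against Ctrl (left) and SIS3_TGFb against TGFb (right), filled red where the gene rose and blue where it fell at an adjusted p under 0.05 in edgeR. Ulk1, Atg13 and Atg14 are filled on the left, Atg3, Atg5 and Atg12 on the right, and the panels share the TGFb libraries.

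Sqstm1 encodes p62, a receptor that binds ubiquitinated cargo and ATG8 proteins and is itself destroyed by autophagy. It lies at chr11:50200152-50210820 (GRCm38.p6). Sqstm1 measured 947, 927 and 862 CPM in Ctrl, 1177, 1115 and 1155 CPM in TGFb and 2321, 2266 and 2123 CPM in SIS3_TGFb. Every TGFb library was above every Ctrl library and every SIS3_TGFb library was above all of the others. The rise after TGF-β1 was 1.26-fold, a log2 change of 0.33 ± 0.044 (edgeR, adjusted p = 1.7e-05). SIS3 ahead of TGF-β1 gave a further 1.95-fold rise, a log2 change of 0.96 ± 0.044 (edgeR, adjusted p = 2e-10). Against Ctrl the cells given both stood 2.45-fold higher, a log2 change of 1.29 ± 0.044 (edgeR, adjusted p = 1.6e-12). In the annotation 580 of the gene's 2823 exon bases lie opposite exons of Mrnip, and strand was not stated to be used in counting. Mrnip itself had 27 to 60 expected counts per library, against 14169 to 39294 for Sqstm1.

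Nbr1, the gene of a receptor related to p62, moved little. It measured 114, 112 and 113 CPM in Ctrl, 122, 118 and 129 CPM in TGFb and 111, 116 and 116 CPM in SIS3_TGFb. The TGFb libraries were above the others, by small margins, and Ctrl and SIS3_TGFb overlapped. Nbr1 passed as a rise in TGFb against Ctrl (0.12 ± 0.039, edgeR, adjusted p = 0.028) and as a fall in SIS3_TGFb against TGFb (-0.10 ± 0.039, edgeR, adjusted p = 0.048). Those calls were lost in 9 and 16 of 18 alternatives, with adjusted p of 0.0181 to 0.153 and 0.0263 to 0.735. Without Ctrl replicate 1, 2 or 3 or TGFb replicate 1 or 3 the first was 0.0541, 0.0795, 0.072, 0.0524 and 0.138, and leaving out any library other than TGFb replicate 2 ended the second.

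The ATG8 genes encode the small proteins that are joined to lipid on the autophagosome membrane, where LC3 proteins act in cargo capture and membrane growth and GABARAP proteins also recruit ULK1 and help fusion with the lysosome. After TGF-β1 both LC3 genes rose, as did Gabarap, making 3 of 5 (60%, beside 17.9% of all genes tested). After SIS3 and TGF-β1 together 2 GABARAP genes fell below both other groups, 40% of the 5. Of all genes tested, 20.6% fell from TGFb and 24.9% from Ctrl in SIS3_TGFb.
Map1lc3b measured 113, 117 and 111 CPM in Ctrl, 144, 132 and 138 CPM in TGFb and 132, 130.1 and 129 CPM in SIS3_TGFb. The TGFb and SIS3_TGFb libraries lay above all Ctrl libraries and overlapped each other. Its log2 change was 0.29 ± 0.04 in TGFb against Ctrl (edgeR, adjusted p = 3.3e-05), -0.085 ± 0.039 in SIS3_TGFb against TGFb (edgeR, adjusted p = 0.095) and 0.20 ± 0.04 in SIS3_TGFb against Ctrl (edgeR, adjusted p = 0.00052). Without TGFb replicate 2 the middle comparison passed (adjusted p 0.0348 in edgeR, within a range of 0.0348 to 0.974).
Map1lc3a, the less expressed LC3 gene, measured 15.1, 13.1 and 13.8 CPM in Ctrl, 18.5, 18.3 and 19.6 CPM in TGFb and 18.5, 19 and 17.8 CPM in SIS3_TGFb. Its 2 treated groups overlapped and lay above Ctrl, with a log2 change of 0.43 ± 0.076 in TGFb against Ctrl (edgeR, adjusted p = 0.00034) and 0.40 ± 0.075 in SIS3_TGFb against Ctrl (edgeR, adjusted p = 0.00031).

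Gabarap was the ATG8 gene with the highest level per length. It measured 449, 454 and 435 CPM in Ctrl, 493, 474 and 492 CPM in TGFb and 422, 396 and 392 CPM in SIS3_TGFb. The TGFb libraries were the highest and the SIS3_TGFb libraries the lowest, with no overlap among the 3 groups. Gabarap rose by 0.13 ± 0.037 on the log2 scale after TGF-β1 (edgeR, adjusted p = 0.015) and fell by 0.27 ± 0.037 with SIS3 ahead of it (edgeR, adjusted p = 3.3e-05), ending 1.11-fold below Ctrl (edgeR, adjusted p = 0.0039). The rise was lost without Ctrl replicate 3 (adjusted p 0.0697 in edgeR), without TGFb replicate 1 (0.0523) and with upper-quartile factors (0.0954), and the fall in SIS3_TGFb against TGFb kept an adjusted p of 9.52e-12 to 0.000457 over the 18 alternatives.
Gabarapl2 measured 83.3, 76.7 and 74.4 CPM in Ctrl, 73.9, 82.3 and 75.2 CPM in TGFb and 67.3, 67.7 and 63.9 CPM in SIS3_TGFb. The SIS3_TGFb libraries were the lowest, and Ctrl and TGFb overlapped. It fell by 0.22 ± 0.053 on the log2 scale in SIS3_TGFb against TGFb (edgeR, adjusted p = 0.0039) and by 0.24 ± 0.053 against Ctrl (edgeR, adjusted p = 0.0014). Without scaling factors the first of these missed the threshold, at 0.0522.
Gabarapl1 ranged from 63.9 to 75.6 CPM with overlapping groups and passed in none of the 3 comparisons, with log2 changes of -0.11 ± 0.055, 0.08 ± 0.055 and -0.027 ± 0.055. Without Ctrl replicate 3 its lower level in TGFb passed, at an adjusted p of 0.045 in edgeR within a range of 0.045 to 0.485.

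**Figure D3:**
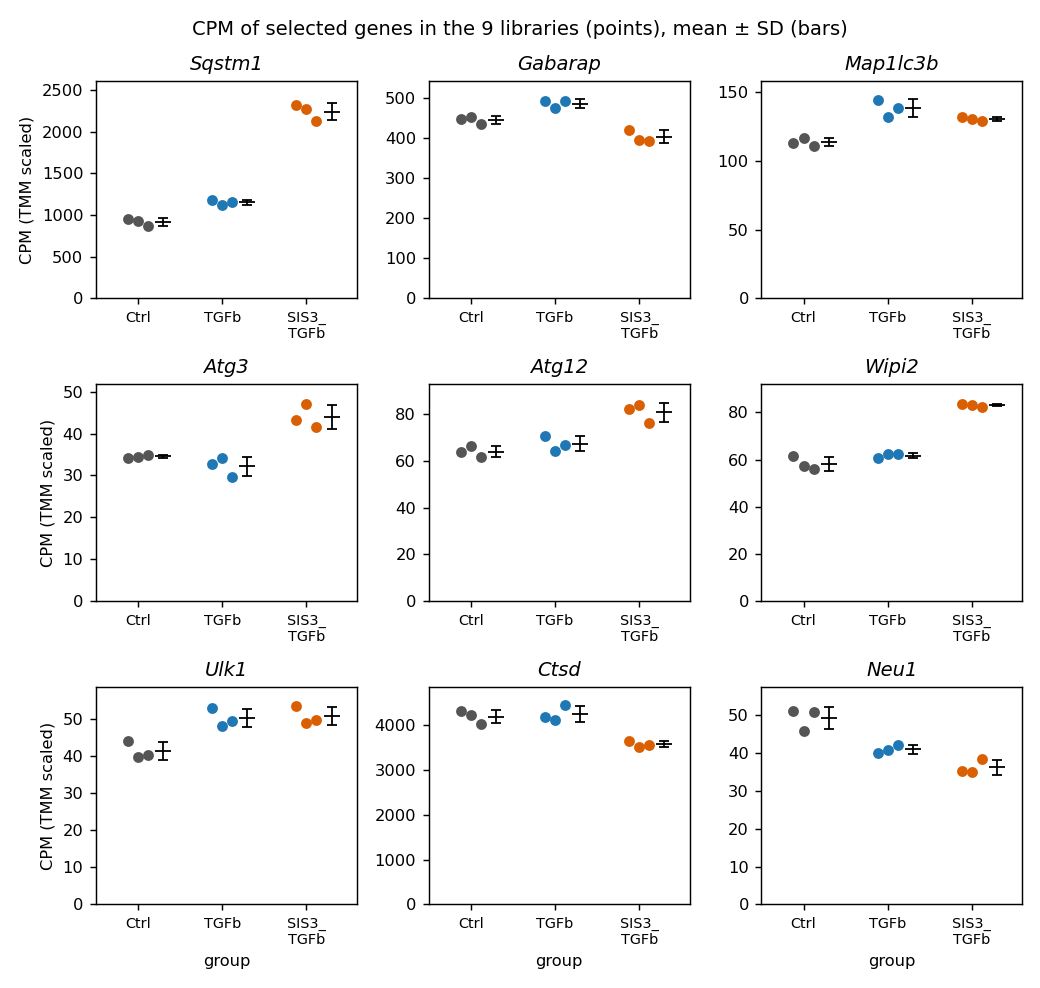
Points give the CPM (TMM scaled) of 9 genes in the 3 libraries of each group, with mean ± SD beside them and each axis starting at 0. Sqstm1 climbs from 912 CPM in Ctrl to 1149 CPM in TGFb and 2237 CPM in SIS3_TGFb, Gabarap is lowest in SIS3_TGFb, and Atg3, Atg12 and Wipi2 are higher in the SIS3_TGFb libraries than in any other.

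Of the 3 initiation genes, 2 rose with TGF-β1, as did 1 of the 2 lipid kinase genes. Those are 66.7% and 50%, beside 17.9% of all genes tested. Ulk1, the gene of the kinase that launches the process, measured 44.2, 39.7 and 40.2 CPM in Ctrl, 52.9, 48.1 and 49.5 CPM in TGFb and 53.5, 49 and 49.7 CPM in SIS3_TGFb. Both treated groups lay above Ctrl and overlapped each other. Ulk1 rose 1.21-fold in TGFb against Ctrl (log2 0.28 ± 0.058, edgeR, adjusted p = 0.0013), and its log2 change from TGFb to SIS3_TGFb was 0.016 ± 0.057 (edgeR, adjusted p = 0.85). Atg13, which encodes the adaptor that holds the ULK complex together, rose from 68.7 ± 2.58 CPM in Ctrl to 77.8 ± 2.8 CPM in TGFb (log2 0.18 ± 0.044, edgeR, adjusted p = 0.005) and stood at 79.9 ± 1.96 CPM in SIS3_TGFb. Ulk2, the paralog of Ulk1, ranged from 58 to 64.9 CPM and passed in no comparison, its log2 changes being -0.059 ± 0.045, 0.097 ± 0.045 and 0.039 ± 0.045. The difference between the Ulk1 and Ulk2 changes was not tested.

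ATG14 directs the class III lipid kinase to the autophagosome, with beclin 1 as a shared subunit. Atg14 measured 16.5, 15.2 and 17 CPM in Ctrl, 19.4, 19.8 and 21.2 CPM in TGFb and 20.7, 21.8 and 23.8 CPM in SIS3_TGFb. No treated library was as low as a Ctrl library, and the SIS3_TGFb and TGFb libraries overlapped. It rose by 0.31 ± 0.078 on the log2 scale in TGFb against Ctrl (edgeR, adjusted p = 0.0052) and by 0.45 ± 0.076 in SIS3_TGFb against Ctrl (edgeR, adjusted p = 0.00013). Becn1, the beclin 1 gene, lay within 105 to 116 CPM in all libraries. It passed as a fall in SIS3_TGFb against Ctrl only, by 0.092 ± 0.037 (edgeR, adjusted p = 0.047), and lost that call in 13 of 18 alternatives (0.0101 to 0.467). Leaving out any library other than TGFb replicate 1 or 3 was enough to lose it. Its counts were split with other genes in all 9 libraries, as values that are not whole numbers show, and 1394 of its 4716 exon bases lie opposite exons of Cntd1, which had 2.15 to 8.53 expected counts.

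WIPI proteins bind the lipid made by that kinase, and WIPI2 brings the conjugation machinery to the membrane. Wipi2 measured 61.5, 57.1 and 55.9 CPM in Ctrl, 60.7, 62.3 and 62.2 CPM in TGFb and 83.6, 83.3 and 82.4 CPM in SIS3_TGFb. The SIS3_TGFb libraries stood above all of the others, and Ctrl and TGFb overlapped. It rose 1.35-fold in SIS3_TGFb against TGFb (log2 0.43 ± 0.043, edgeR, adjusted p = 1.4e-06) and 1.43-fold against Ctrl (edgeR, adjusted p = 6.7e-08). In TGFb against Ctrl its change of 0.085 ± 0.045 did not pass (edgeR, adjusted p = 0.16), except without Ctrl replicate 1 (0.0476, within a range of 0.0476 to 0.468). Wipi1 was a low gene with 13 to 36 counts per library and measured 0.883, 0.863 and 0.791 CPM in Ctrl, 2.15, 2.14 and 1.2 CPM in TGFb and 2.13, 1.98 and 1.97 CPM in SIS3_TGFb. All treated libraries were above all Ctrl libraries, TGFb replicate 3 being the lowest of them. It rose by 1.12 ± 0.28 on the log2 scale with TGF-β1 (edgeR, adjusted p = 0.0054) and did not pass between the treated groups (0.14 ± 0.24, edgeR, adjusted p = 0.68).

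Of the 5 conjugation genes, 3 rose and 0 fell when SIS3 preceded TGF-β1 (60% and 0%, beside 21.2% and 20.6% of all genes tested). In TGFb against Ctrl 0 of the 5 passed in edgeR, DESeq2 or limma voom, and 0 had an unadjusted p under 0.05 in edgeR. ATG7 activates ATG8 and ATG12, ATG3 hands ATG8 to its lipid, and ATG12 joined to ATG5 and ATG16L1 sets where that happens. Atg3 measured 34.3, 34.5 and 35 CPM in Ctrl, 32.6, 34.2 and 29.6 CPM in TGFb and 43.2, 47.1 and 41.5 CPM in SIS3_TGFb. The SIS3_TGFb libraries were the highest, and the TGFb libraries lay slightly under the Ctrl ones. Atg3 rose by 0.45 ± 0.063 on the log2 scale in SIS3_TGFb against TGFb (edgeR, adjusted p = 4.1e-05) and by 0.34 ± 0.062 against Ctrl (edgeR, adjusted p = 0.00023), while its change of -0.10 ± 0.065 in TGFb against Ctrl did not pass (edgeR, adjusted p = 0.25).
Atg5 measured 43.3, 46.6 and 46.9 CPM in Ctrl, 44, 44.2 and 41.7 CPM in TGFb and 56.3, 52.5 and 55 CPM in SIS3_TGFb. Atg12 measured 63.7, 66.2 and 61.7 CPM in Ctrl, 70.6, 64.2 and 66.8 CPM in TGFb and 82.2, 83.6 and 75.9 CPM in SIS3_TGFb. In both genes all SIS3_TGFb libraries lay above all of the others, and Ctrl overlapped TGFb. From TGFb to SIS3_TGFb, Atg5 rose by 0.33 ± 0.051 (edgeR, adjusted p = 8.4e-05) and Atg12 by 0.26 ± 0.05 (edgeR, adjusted p = 0.0006) on the log2 scale. The 3 rises were kept in all 18 alternatives, with adjusted p of 1.24e-06 to 0.000373 for Atg3, 1.39e-05 to 0.000865 for Atg5 and 4.8e-05 to 0.00527 for Atg12.
Atg7 ranged from 35.6 to 41.3 CPM and Atg16l1 from 20.1 to 24.3 CPM, and their groups overlapped in every comparison. From TGFb to SIS3_TGFb their log2 changes were 0.065 ± 0.061 (edgeR, adjusted p = 0.43) and -0.062 ± 0.073 (edgeR, adjusted p = 0.53). Without scaling factors Atg7 passed in that comparison, at 0.0498.

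Of the 7 genes of the TFE and Rag branch, 1 fell after TGF-β1 (14.3%, beside 16.4% of all genes), and 3 rose and 1 fell when SIS3 preceded it (42.9% and 14.3%, beside 21.2% and 20.6%). Tfe3, the transcription factor gene with the higher level per length, measured 40.3, 42.3 and 43.1 CPM in Ctrl, 44.3, 43.3 and 40.5 CPM in TGFb and 45.7, 47.6 and 49.3 CPM in SIS3_TGFb. The SIS3_TGFb libraries were the highest, by small margins. Tfe3 rose by 0.15 ± 0.053 on the log2 scale in SIS3_TGFb against TGFb (edgeR, adjusted p = 0.029) and by 0.18 ± 0.053 against Ctrl (edgeR, adjusted p = 0.0088). The first call was lost in DESeq2 (0.128) and without TGFb replicate 2 (0.0556) or 3 (0.114) or SIS3_TGFb replicate 2 (0.0693) or 3 (0.102), and the second only in DESeq2 (0.0551). Without both replicate 3 libraries of the treated groups the first change was 0.091 (0.256).
Tfeb measured 4.79, 3.82 and 4.99 CPM in Ctrl, 4.68, 4.15 and 2.66 CPM in TGFb and 4.19, 4.65 and 5.57 CPM in SIS3_TGFb. TGFb replicate 3 was the lowest library and SIS3_TGFb replicate 3 the highest, and the groups overlapped. No comparison of Tfeb passed, with log2 changes of -0.24 ± 0.20, 0.32 ± 0.20 and 0.084 ± 0.19.

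Rragd encodes a Rag GTPase that ties TFEB and TFE3 to mTORC1, and is itself a known target of these factors. It had the lowest level per length of the 35 genes, with 9 to 43 counts per library. Rragd measured 0.694, 0.801 and 0.548 CPM in Ctrl, 1.17, 0.671 and 0.999 CPM in TGFb and 2.54, 1.57 and 1.68 CPM in SIS3_TGFb. The SIS3_TGFb libraries were all above the others, and Ctrl overlapped TGFb. It rose 2.03-fold from TGFb to SIS3_TGFb (log2 1.02 ± 0.29, edgeR, adjusted p = 0.011) and 2.81-fold from Ctrl (log2 1.49 ± 0.31, edgeR, adjusted p = 0.00074). The first of these missed the threshold without TGFb replicate 2 (0.0584) or SIS3_TGFb replicate 1 (0.0704). Rragc, its far more expressed paralog, went the other way and measured 134, 139 and 136 CPM in Ctrl, 128, 137 and 123 CPM in TGFb and 116, 124 and 118 CPM in SIS3_TGFb. SIS3_TGFb was the lowest group and overlapped TGFb by a narrow margin. Rragc fell by 0.12 ± 0.042 from TGFb (edgeR, adjusted p = 0.035) and by 0.20 ± 0.042 from Ctrl (edgeR, adjusted p = 0.001) on the log2 scale. Without TGFb replicate 1 (0.0591) or 2 (0.177), SIS3_TGFb replicate 1 (0.13) or 3 (0.0846) or scaling factors (0.569) the smaller fall was lost.

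Folliculin, encoded by Flcn, works with FNIP1 or FNIP2 to switch RagC and RagD. Fnip2 measured 36, 36.9 and 39.5 CPM in Ctrl, 24.2, 27 and 18.2 CPM in TGFb and 30.6, 23.7 and 34.7 CPM in SIS3_TGFb. All TGFb libraries were below all Ctrl libraries, TGFb replicate 3 being the lowest, and SIS3_TGFb lay below Ctrl and overlapped TGFb. Fnip2 fell 1.61-fold with TGF-β1 (log2 -0.69 ± 0.13, edgeR, adjusted p = 0.00051), and this call held in all 18 alternatives, the removal of TGFb replicate 3 among them (1.77e-06 to 0.00337). It passed as a rise of 0.35 ± 0.13 from TGFb to SIS3_TGFb (edgeR, adjusted p = 0.041) and as a fall of 0.34 ± 0.12 from Ctrl (edgeR, adjusted p = 0.03). Those 2 calls were lost in 11 and 7 alternatives. The rise shrank to 0.21 on the log2 scale without TGFb replicate 3 and to 0.22 without SIS3_TGFb replicate 3, and the fall from Ctrl became -0.20 without SIS3_TGFb replicate 2. Without both replicate 3 libraries of the treated groups, an alternative chosen after seeing the data, the rise was 0.082 with an adjusted p of 0.541, and it was also lost without TGFb replicate 1 (0.0672) or 3 (0.162), SIS3_TGFb replicate 1 (0.107) or 3 (0.193) or Ctrl replicate 1 (0.0535) or 2 (0.0564). The fall from Ctrl was lost without Ctrl replicate 2 (0.0598) or 3 (0.0944) or SIS3_TGFb replicate 1 (0.0527) or 2 (0.152).
Flcn rose from 35.8 ± 1.43 CPM in Ctrl to 41.2 ± 2.04 CPM in SIS3_TGFb (log2 0.20 ± 0.056, edgeR, adjusted p = 0.0062), with 37.7 ± 1.38 CPM in TGFb. Its difference between the treated groups did not pass (edgeR, adjusted p = 0.073), but did without both replicate 3 libraries (0.0448) and without scaling factors (0.00501). Fnip1 ranged from 52.7 to 62.2 CPM and passed in no comparison.

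Of the 5 hydrolase genes, 2 fell from TGFb to SIS3_TGFb, as did 1 of the 2 lysosomal membrane genes. Those are 40% and 50%, beside 20.6% of all genes tested. Ctsd, the gene of the aspartic protease cathepsin D, was the most abundant of the 35 genes and lies at chr7:142375910-142387827 (GRCm38.p6). It measured 4304, 4217 and 4021 CPM in Ctrl, 4178, 4122 and 4438 CPM in TGFb and 3651, 3509 and 3557 CPM in SIS3_TGFb. The SIS3_TGFb libraries were the lowest, and Ctrl and TGFb overlapped. Ctsd fell 1.19-fold from TGFb to SIS3_TGFb (log2 -0.25 ± 0.039, edgeR, adjusted p = 0.00012) and 1.17-fold from Ctrl (edgeR, adjusted p = 0.00015), and in TGFb against Ctrl its log2 change was 0.022 ± 0.039 (edgeR, adjusted p = 0.71). In the annotation 670 of its 2127 exon bases are shared with another gene model, Gm49369, on the same strand.
Neu1, the gene of the sialidase that trims glycoproteins in the lysosome, measured 51.2, 45.8 and 50.8 CPM in Ctrl, 40, 40.7 and 42.2 CPM in TGFb and 35.2, 35.1 and 38.5 CPM in SIS3_TGFb. The groups did not overlap and stood in the order Ctrl, TGFb, SIS3_TGFb from high to low. Neu1 fell by 0.27 ± 0.058 with TGF-β1 (edgeR, adjusted p = 0.0019), by 0.17 ± 0.059 from TGFb to SIS3_TGFb (edgeR, adjusted p = 0.028) and by 0.44 ± 0.058 from Ctrl (edgeR, adjusted p = 1e-05) on the log2 scale. The middle call was lost in DESeq2 (0.0523), without scaling factors (0.253) and without TGFb replicate 2 (0.051) or 3 (0.0748) or SIS3_TGFb replicate 1 (0.099) or 2 (0.0932).
Hexa, which encodes a subunit of the hexosaminidase that breaks down gangliosides, ranged from 103 to 117 CPM with overlapping groups and passed in no comparison. Without scaling factors it passed in SIS3_TGFb against TGFb, at 0.0289.

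Lamp2, the gene of a membrane glycoprotein that lines the lysosome, measured 173, 173 and 184 CPM in Ctrl, 167, 164 and 164 CPM in TGFb and 153, 150.4 and 153 CPM in SIS3_TGFb. Each group lay below the one before it, with no overlap. Its fall from TGFb to SIS3_TGFb was 0.12 ± 0.036 (edgeR, adjusted p = 0.017) and from Ctrl 0.21 ± 0.036 (edgeR, adjusted p = 0.00013) on the log2 scale, and TGFb against Ctrl did not pass (-0.094 ± 0.036, edgeR, adjusted p = 0.054). Without TGFb replicate 1 (0.0537), SIS3_TGFb replicate 2 (0.0583) or scaling factors (0.521) the first of these was lost, while 3 other choices of scaling gave TGFb against Ctrl an adjusted p of 0.00735 to 0.0454. Mcoln1, which encodes the calcium channel through which the lysosome signals to TFEB, ranged from 21.3 to 24.2 CPM, with log2 changes of 0.10 ± 0.062, -0.035 ± 0.061 and 0.066 ± 0.062, and none passed.
The V-ATPase acidifies the lysosome. Atp6v1h, the gene of a subunit of its cytosolic part, measured 42.4, 44.6 and 48.6 CPM in Ctrl, 44.3, 40.9 and 43.8 CPM in TGFb and 50.4, 51.6 and 52.5 CPM in SIS3_TGFb. The SIS3_TGFb libraries were the highest, and the other groups overlapped. It rose by 0.26 ± 0.056 on the log2 scale from TGFb (edgeR, adjusted p = 0.0016) and by 0.19 ± 0.055 from Ctrl (edgeR, adjusted p = 0.0092, lost without Ctrl replicate 1 at 0.0529). Atp6v0d1, which encodes a subunit of the membrane part, stood at 79.7 ± 6.35, 82.9 ± 4.96 and 87.6 ± 1.95 CPM in Ctrl, TGFb and SIS3_TGFb. It did not pass in any comparison, and SIS3_TGFb against Ctrl (edgeR, adjusted p = 0.052) passed without Ctrl replicate 3 (0.0174), without TGFb replicate 3 (0.0312) and in 3 other alternatives, within a range of 0.0158 to 0.265.

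Ctsb and Ctsl, the genes of the cysteine proteases cathepsin B and L, spread widely within groups. Ctsb measured 721, 778 and 797 CPM in Ctrl, 692, 728 and 604 CPM in TGFb and 688, 658 and 816 CPM in SIS3_TGFb. Ctsl measured 14.2, 21.3 and 20 CPM in Ctrl, 15.8, 18.7 and 13 CPM in TGFb and 17.3, 15.4 and 24.8 CPM in SIS3_TGFb. In both, TGFb replicate 3 was the lowest library of all and SIS3_TGFb replicate 3 the highest, and all groups overlapped. Neither gene passed in any comparison, with adjusted p in edgeR of 0.072, 0.33 and 0.34 for Ctsb and 0.36, 0.23 and 0.83 for Ctsl. Ctsb in SIS3_TGFb against Ctrl fell by 0.19 with an adjusted p of 0.000686 once both replicate 3 libraries of the treated groups were left out, and had 0.0221 without SIS3_TGFb replicate 3 alone. In TGFb against Ctrl it passed without TGFb replicate 2 (0.0317), without SIS3_TGFb replicate 3 (0.02) and in 4 other alternatives, within a range of 0.018 to 0.243.
Lyz2, a lysozyme gene that marks macrophages and made up 46.0% of the macrophage marker sum, measured 657, 793 and 892 CPM in Ctrl, 595, 733 and 452 CPM in TGFb and 563, 521 and 882 CPM in SIS3_TGFb. It was lowest in TGFb replicate 3 and, within SIS3_TGFb, highest in replicate 3, as were Ctsb, Ctsl, Fnip2, Tfeb and Hexa. For Hexa the values were 107, 114 and 103 CPM in TGFb and 116, 106 and 117 CPM in SIS3_TGFb. Tfe3 and Atg16l1 were also lowest of TGFb and highest of SIS3_TGFb in replicate 3, though not lowest of all libraries. Of the 13 macrophage markers, 10 were lowest of their group in TGFb replicate 3 and 11 highest of theirs in SIS3_TGFb replicate 3. Ly6c2 went the other way in both, with 184, 157 and 198 CPM in TGFb and 159, 151 and 124 CPM in SIS3_TGFb, and Ccr2 (161, 164 and 143 CPM in SIS3_TGFb) was lowest in SIS3_TGFb replicate 3. None of the 13 macrophage markers was at 0 in every library. The part of macrophage RNA in the values of Ctsb, Ctsl, Fnip2, Tfeb, Hexa, Tfe3 and Atg16l1 was not tested. Counts of Ctsb were split with other genes in all 9 libraries and those of Ctsl in 7, and 774 of the 4743 exon bases of Ctsb lie opposite exons of Fdft1, which had 1049 to 1479 expected counts.

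**Figure D4:**
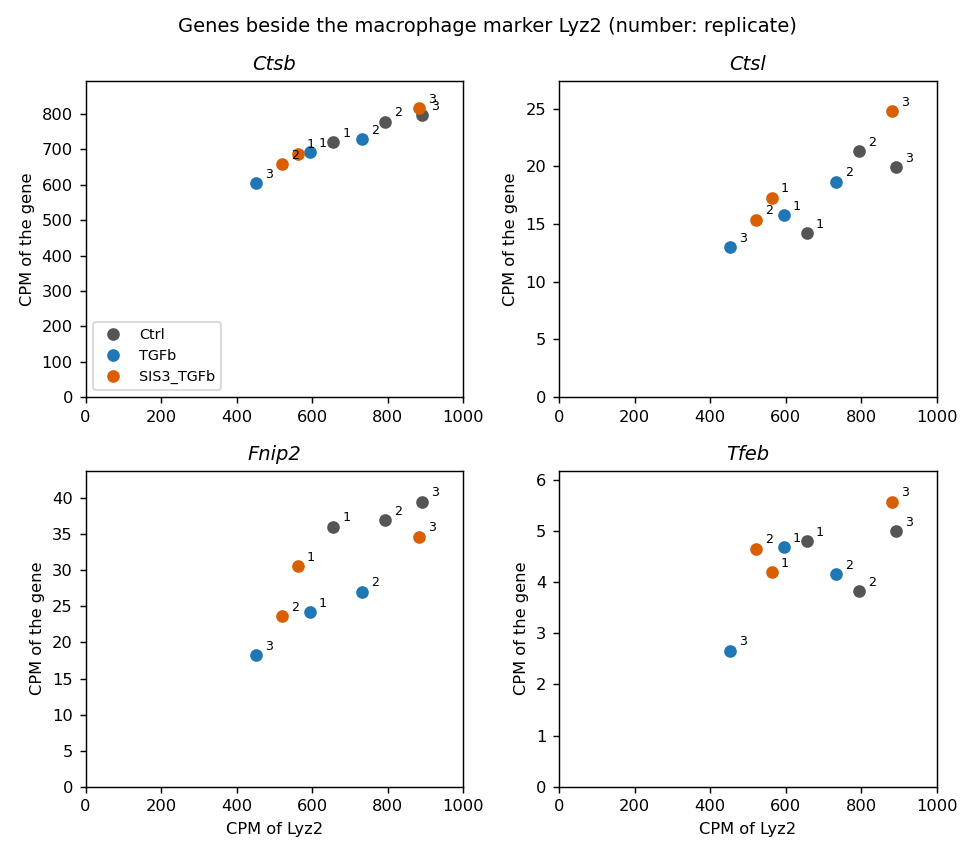
CPM of Ctsb, Ctsl, Fnip2 and Tfeb (vertical axes) against CPM of the macrophage marker Lyz2 (horizontal axes) in each library, with colour for the group and the number for the replicate. TGFb replicate 3, at 452 CPM of Lyz2, is the lowest point in each panel, and SIS3_TGFb replicate 3, at 882 CPM, is the highest point of its group.

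Levels between genes can be compared only per length. Per kilobase of annotated exon, Ctrl levels ran from 1966 ± 68.1 CPM per kb for Ctsd down to 0.132 ± 0.0246 CPM per kb for Rragd. Gabarap and Sqstm1 came next to Ctsd at 330.0 ± 7.38 and 323 ± 15.8 CPM per kb, which did not differ beyond their spread, and Ctsb followed at 161 ± 8.35. In SIS3_TGFb the same pair stood at 299 ± 11.9 CPM per kb for Gabarap and 792 ± 36.2 CPM per kb for Sqstm1. The other genes lay between 56 ± 1.52 CPM per kb for Hexa and 0.198 ± 0.0113 CPM per kb for Wipi1 in Ctrl, and Tfe3, at 11.6 ± 0.404, was above Tfeb, at 1.13 ± 0.156.

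A wider list of 135 other autophagy and lysosome genes, of which 134 were tested, went down more often than up when SIS3 preceded TGF-β1. In SIS3_TGFb against TGFb 15 rose and 47 fell (11.2% and 35.1%, beside 21.2% and 20.6% of all genes), with a median log2 change of -0.078. Without scaling factors 27 rose and 28 fell (20.1% and 20.9%), beside 30.2% and 12.3% of all genes, so the share that fell was above that of all genes under both settings. In TGFb against Ctrl 27 rose and 17 fell (20.1% and 12.7%, beside 17.9% and 16.4%), with a median of 0.025. Upper-quartile factors gave 18 and 24 there (13.4% and 17.9%, beside 14.8% and 21%), and no scaling factors 20 and 20 (14.9% each, beside 16.1% and 18.4%). In SIS3_TGFb against Ctrl 32 rose and 46 fell (23.9% and 34.3%, beside 29% and 24.9%), with a median of -0.072. Without scaling factors 38 rose and 32 fell there (28.4% and 23.9%, beside 34.6% and 19.6%).

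Among 29 other core autophagy genes, 8 rose and 3 fell with TGF-β1 and 4 rose and 10 fell from TGFb to SIS3_TGFb. Those are 27.6% and 10.3% with TGF-β1, beside 17.9% and 16.4% of all genes, and 13.8% and 34.5% at the second step, beside 21.2% and 20.6%, the same all-gene shares applying to each list that follows. Epg5, a tether for fusion of autophagosomes with lysosomes, went up at both steps, from 45.5 ± 1.13 CPM in Ctrl to 86.2 ± 5.42 CPM in TGFb and 110.4 ± 4.99 CPM in SIS3_TGFb. Its log2 changes were 0.92 ± 0.053 (edgeR, adjusted p = 1.2e-09) and 0.36 ± 0.049 (edgeR, adjusted p = 2.9e-05). Atg2a and Atg9a, whose products supply lipid to the growing membrane, fell by 0.55 ± 0.045 and 0.46 ± 0.048 on the log2 scale from TGFb to SIS3_TGFb. Ykt6 and Snap29, both of the fusion machinery, changed in opposite directions with TGF-β1, by 0.52 ± 0.039 and -0.26 ± 0.046.
Of 12 other autophagy receptor genes tested, 3 rose and 1 fell with TGF-β1 (25% and 8.33%), and 0 rose and 5 fell from TGFb to SIS3_TGFb (0% and 41.7%). Retreg1, the gene of a receptor for the endoplasmic reticulum, rose from 17.3 ± 1.75 CPM in Ctrl to 57.9 ± 2.74 CPM in TGFb (log2 1.74 ± 0.077, edgeR, adjusted p = 5.2e-11) and was 63 ± 5.12 CPM in SIS3_TGFb. Ncoa4, the receptor gene for ferritin, fell at both steps, from 297 ± 10.4 CPM to 238 ± 4.21 and 180.2 ± 2.37 CPM. Bnip3, a mitochondrial receptor gene, fell by 0.62 ± 0.072 on the log2 scale from TGFb to SIS3_TGFb (edgeR, adjusted p = 5.7e-06).

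Among 23 other TFE, mTORC1 and Rag genes, 6 rose and 4 fell in each of the first 2 comparisons (26.1% and 17.4%), and both shares of the second comparison were near those of all genes. Rptor, which encodes the scaffold of mTORC1, rose with TGF-β1 by 0.42 ± 0.054 (edgeR, adjusted p = 1.5e-05). Rheb, the GTPase gene that switches mTORC1 on, fell by 0.27 ± 0.069 with TGF-β1 and rose by 0.48 ± 0.068 when SIS3 preceded it. Rragb, paralog of the Rag partner gene Rraga, rose by 0.88 ± 0.16 from a low level of 4.21 ± 0.423 CPM in TGFb, and Ywhah, a 14-3-3 gene, fell by 0.44 ± 0.032.
Of 35 other hydrolase and activator genes, 3 rose and 5 fell with TGF-β1 (8.57% and 14.3%), and 2 rose and 16 fell from TGFb to SIS3_TGFb (5.71% and 45.7%), where the median was -0.13. Sgsh, the heparan sulfatase gene, was 1 of the 2 rises and went from 22.8 ± 1.18 CPM in Ctrl to 29.5 ± 1.12 in TGFb and 55 ± 3.27 in SIS3_TGFb (log2 0.90 ± 0.06 for the last step, edgeR, adjusted p = 1.6e-08). Ctsa, the gene of a protective protease, fell by 0.34 ± 0.033 on the log2 scale from TGFb to SIS3_TGFb. Arsb, a sulfatase gene, went from 662 ± 25 CPM in Ctrl to 440.2 ± 21.5 CPM in SIS3_TGFb (edgeR, adjusted p = 8.2e-09).
The 19 membrane and trafficking genes gave 4 rises and 2 falls with TGF-β1 (21.1% and 10.5%) and 2 rises and 6 falls from TGFb to SIS3_TGFb (10.5% and 31.6%). Gnptab, which encodes the enzyme that tags hydrolases for the lysosome, fell at both steps, from 209 ± 5.88 CPM to 178 ± 1.95 and 116 ± 3.46 CPM. Npc1 and Igf2r, the genes of a cholesterol exporter and of the receptor for tagged hydrolases, rose by 0.35 ± 0.035 and 0.46 ± 0.046 with TGF-β1. Of 16 other V-ATPase subunit genes, 3 rose and 2 fell with TGF-β1 (18.8% and 12.5%), and 1 rose and 6 fell from TGFb to SIS3_TGFb (6.25% and 37.5%). Atp6v0a1 rose from 45.3 ± 3.21 CPM in Ctrl to 139.6 ± 4.81 CPM in TGFb (log2 1.62 ± 0.051, edgeR, adjusted p = 1.1e-12), and Atp6v1a fell at both steps, by 0.16 ± 0.043 and 0.24 ± 0.044.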

How the data were processed

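The authors deposited a table of expected counts per gene, that is, estimated reads per gene that were not scaled for depth. The unit was read from the values, of which 10.2% to 11.1% per library were not whole numbers. Per the submitters' processing notes HISAT2, StringTie, Cufflinks, Bowtie2, RSEM and DESeq2 were used with the builds GRCm38 and mm10. The sources used here do not give their versions or roles, the use of strand or the annotation. Reads shared between genes were divided among them, which bears most on Becn1 and Ctsb.

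Libraries were grouped by their titles. Expected counts were rounded, filtered with filterByExpr (minimum count 10, minimum total 15), scaled by TMM and fitted over all 9 libraries with 1 mean per group in edgeR 4.0.16 (quasi-likelihood, glmQLFit then glmQLFTest) under R 4.3.3. Tests were two-sided, with Benjamini-Hochberg adjustment over 12212 genes. Each SE was obtained as the log2 change over the root of its F statistic. The steps were tested on simulated data. Alternatives were DESeq2 1.42.0, voom of limma 3.58.1, other scalings, no filter, only the groups compared, a replicate block and each library left out.

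Exon lengths came from GENCODE vM21 (basic), and positions and promoters from RefSeq GRCm38.p6. From each other list up to 2 rises and 2 falls with the smallest p per comparison were eligible to be named, and 1 such gene is not reported here. The 35 genes and all lists were chosen with earlier results of these data known. Protein sequences were not used here.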

Additional observations from a re-analysis of the deposited data

How the results depend on the processing

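Over 18 alternatives the count of changed genes among the 35 ran from 9 to 12 in TGFb against Ctrl (11 as reported), from 11 to 18 in SIS3_TGFb against TGFb (16) and from 20 to 24 in SIS3_TGFb against Ctrl (23). With 1 library left out at a time the counts were 9 to 12, 11 to 15 and 21 to 24. Of the genes that passed, 9 of 11, 8 of 16 and 19 of 23 passed in every alternative, and 0 reversed. The counts for the other pathway genes were 32 to 48, 52 to 71 and 67 to 88 over all alternatives, and 34 to 48, 52 to 61 and 67 to 82 with 1 library left out.

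Replicate numbers were not treated as pairs: of 9 same-numbered pairs of libraries 2 had deviations correlated above 0.1 (-0.147 to 0.126), and the best match had the same number in 5 of 18 cases. With a replicate block 11, 14 and 21 of the 35 genes passed, as did 41, 59 and 73 of the other pathway genes and 3942, 4803 and 6346 of all genes. The genes it lost were Nbr1 (0.0589) and Fnip2 (0.0759) in SIS3_TGFb against TGFb and Becn1 (0.068) and Fnip2 (0.0537) in SIS3_TGFb against Ctrl. The 9 to 43 counts of Rragd and 13 to 36 counts of Wipi1 limit the precision of their changes.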

Other observations

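Against Ctrl, the cells given SIS3 and TGF-β1 also differed in pathway genes not described above. Nprl3, which encodes a brake on the Rag GTPases, rose from 22.2 ± 1.86 CPM to 33.4 ± 2.85 CPM (log2 0.59 ± 0.088, edgeR, adjusted p = 3.6e-05), and Optn, an autophagy receptor gene, rose by 0.27 ± 0.069 (edgeR, adjusted p = 0.0039). Stx17, the gene of the fusion protein on the closed autophagosome, fell from 58.5 ± 2.76 CPM to 42.5 ± 2.18 CPM (log2 -0.46 ± 0.053, edgeR, adjusted p = 2.2e-06). Lamtor3, of the complex that anchors Rag GTPases, fell by 0.34 ± 0.058, and Ctsc, the protease gene whose product activates granzymes, fell by 0.64 ± 0.041 on the log2 scale (edgeR, adjusted p = 0.00011 and 2.2e-09).

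TGFb replicate 3, the library with the lowest Lyz2, was the lowest of its group in 6 of 8 basophil and mast cell markers. Prss34 measured 34.2, 21 and 3.46 CPM in TGFb replicates 1, 2 and 3 and Gata2 7.57, 5.25 and 0.466 CPM, both chosen here after their values were seen. The exceptions were Mcpt8, with 213, 205 and 233 CPM, and Kit, with 243, 225 and 229 CPM, and the summed markers were 526, 478 and 481 CPM. Of 6 neutrophil markers only 2 were lowest of their group in that library. Mpo, 1 of the 2, measured 4.06, 2.68 and 0.266 CPM, whereas Ctsg, 98.0% of that list's sum, measured 242, 230.4 and 246 CPM. Summed markers of dendritic cells ran from 555 to 781 CPM in Ctrl, 446 to 707 CPM in TGFb and 501 to 874 CPM in SIS3_TGFb.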
